A study of Mus musculus with 5 samples.

Results

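Genes of the major histocompatibility complex (MHC) and of antigen presentation were followed in mouse macrophages through 21 h of lipopolysaccharide (LPS). They were chosen by symbol, as genes whose symbol starts with H2- (the mouse MHC) or is B2m, Tapbp, Tap1, Tap2, Cd74 or Ciita, each with a probe that carries 1 gene symbol and was measured on all 5 arrays. The rule found 12 of the 8637 genes measured in this way, on 14 of 13782 probes. Of these, 6 belong to class I (B2m, H2-D1, H2-Q8, H2-Q10, Tapbp and Tap2) and 6 to class II (H2-Aa, H2-Eb1, H2-DMa, H2-DMb1, H2-DMb2 and Cd74). Tap1 and Ciita had no such probe and were not analysed here. Macrophages had been grown from bone marrow of C3H/ARC mice with human colony stimulating factor 1 (CSF-1), the growth factor of the lineage. The groups were untreated cells (0 h) and cells given 10 µg per ml of LPS from S. minnesota for 0.5, 2, 7 or 21 h. All were hybridised on 2-colour arrays against RNA of C57BL6/J whole embryos of day 17.5, with 1 array per time. There are therefore no replicates and no p-values, and the labels do not say how many mice gave the cells or whether mice were pooled.

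MHC class I molecules show peptides from inside the cell to cytotoxic T cells. A heavy chain, encoded by the H2-K, H2-D, H2-Q, H2-T and H2-M genes, pairs with beta-2 microglobulin (B2m), and the complex is loaded with peptide that the TAP transporter carries into the endoplasmic reticulum, with tapasin (Tapbp) as the bridge between them. Class II molecules are dimers of an alpha and a beta chain (H2-Aa and H2-Eb1 encode one of each), which travel with the invariant chain Cd74, receive peptides from endocytosed material with the help of the H2-DM proteins, and are read by helper T cells. Interferons and NF-kappaB are known inducers of class I genes, while class II transcription in macrophages is known to depend on the coactivator Ciita.

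Each value is a log2 ratio of macrophage to embryo RNA, minus the median of its array over the probes measured on all arrays, so that 0 is the array's typical ratio. The deposited values were read as log10, which the labels do not state. If they were log2, every log2 value below is 3.32 times too large. The direction, macrophage over embryo, is likely rather than stated: at 0 h, 5 of 7 macrophage markers lay above the array median (Lyz2, lysozyme, at 4.16) and 0 of 29 whole-embryo markers did, while the macrophage markers Cd68 (-0.49) and Tyrobp (-0.04) lay below it. If it was the opposite one, higher and lower exchange throughout. The 0.5 h and 2 h arrays held blocks of high ratios that followed the probe number. Probe numbers were divided into 207 runs of 96, and 94 runs with at least 10% of probes at or beyond 2-fold above 0 h at 0.5 h or 2 h are called affected. They hold 45.3% of probes. The share of probes beyond this limit was 16.4% inside them against 1.59% in the other runs on the 0.5 h array, and 27.4% against 4.38% on the 2 h array. On the 7 h array it was 5.72% against 5.04%, and on the 21 h array 5.07% against 3.17%. Because the runs were chosen by their readings at 0.5 h and 2 h, the contrast on those arrays was set by the choice. The limit of 10% also lies below the 12.4% of all genes that were at least 2-fold higher at 2 h. Of the 12 genes, 6 have all their probes in affected runs (H2-Q8, Tapbp, H2-Aa, H2-Eb1, H2-DMb1 and Cd74), B2m has probes on both sides and the other 5 have none there. As the only measure of error, the SD over probes of one gene was pooled over 3015 genes with several probes. For the log2 change it came to 0.67 (0.5 h), 0.97 (2 h), 0.51 (7 h) and 0.47 (21 h), and it is technical.

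B2m, the light chain shared by all class I molecules, was the only one of the 12 with several probes. Its mean log2 ratio was 3.11, 3.61, 3.13, 4.16 and 4.15 at 0, 0.5, 2, 7 and 21 h. It thus stood about equally high at both late times, and at 2 h it was back near the untreated level. The change from 0 h was 0.50 at 0.5 h (SD over probes 0.14, 3 probes), 0.02 at 2 h (SD 0.34), 1.04 at 7 h (SD 0.66) and 1.03 at 21 h (SD 0.39), or 2.06-fold and 2.05-fold at the late times, but under quantile normalization it was -2.73, -3.69, -0.11 and 0.17. Probe 4183 read 2.14, 2.62, 2.54, 3.67 and 3.55 in order of time. Probe 8507 read 3.70, 4.06, 3.58, 5.002 and 4.77, and probe 7305 read 3.49, 4.14, 3.26, 3.79 and 4.12. The probes had the same order of times only in part: all were above 0 h at 0.5, 7 and 21 h, but the changes at 7 h were 1.53, 1.30 and 0.30, and probe 7305 was highest at 0.5 h. With the median over probes in place of the mean, the change was 0.30 at 7 h and 0.62 at 21 h. Probes 4183 and 7305 lie outside the affected runs, and over them alone the change was 0.91 at 7 h and 1.02 at 21 h.

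Tapasin (Tapbp), which holds empty class I molecules to the peptide transporter, had log2 ratios of 1.69, 2.31, 2.63, 3.42 and 3.01. Its ratio was higher at each time than at 0 h and was highest at 7 h. The change was 0.62, 0.94, 1.74 and 1.33 at 0.5, 2, 7 and 21 h, against -1.02, -1.30, 1.72 and 1.27 under quantile normalization, which turns the early ones round. At 7 h (3.33-fold) 69 of the 8637 genes had a larger one. The late changes exceed the pooled SD over probes and the early ones do not. Its single probe lies in an affected run, where the share of the other probes with a 2-fold higher ratio was 21.7% on the 0.5 h array, 32.9% on the 2 h array, 4.21% on the 7 h array and 6.38% on the 21 h array.

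Tap2, a subunit of the peptide transporter, had log2 ratios of 0.75, 1.05, 0.63, 2.01 and 1.15. The 7 h array alone stood apart from the other times. The change was 1.25 at 7 h (2.38-fold) and 0.40, within the pooled SD, at 21 h. Under quantile normalization these were 1.52 and 0.38. The probe lies outside the affected runs, which were chosen by the 0.5 h and 2 h arrays alone. At 7 h 9.52% of the other probes of its run were at least 2-fold higher, beside 5.04% over all runs not affected. In all, 203 genes had a larger change at 7 h.

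The heavy chain genes H2-D1, H2-Q8 and H2-Q10 had 1 probe each. Class I heavy chains share most of their sequence, so a spotted cDNA may also have bound transcripts of its relatives, and the values are uncertain as to the gene. H2-D1, a classical chain that presents peptides, had log2 ratios of 2.94, 2.99, 3.61, 3.78 and 3.45. It was highest at 7 h, with a change of 0.83 (1.78-fold), beyond the pooled SD but under 2-fold, and -0.32 under quantile normalization. H2-Q10, known as a class I gene of the liver with a secreted product, had 2.65, 2.69, 2.61, 2.87 and 3.09, and no change beyond the pooled SD at any time. Its late changes of 0.23 and 0.44 were -0.70 and -0.38 under quantile normalization. H2-Q8, a non-classical chain, had 2.89, 4.24, 1.67, 3.35 and 3.71. Under median centring it was the only one of the 12 at least 2-fold lower at any time, whereas under quantile normalization B2m (-3.69), H2-D1 (-3.14), H2-Q10 (-3.07) and Tapbp (-1.30) were so at 2 h as well. At 0.5 h quantile normalization also put H2-D1 (-2.89), B2m (-2.73), H2-Q10 (-2.49) and Tapbp (-1.02) at least 2-fold lower. H2-Q8 had a change of -1.22 at 2 h after 1.35 at 0.5 h, where quantile normalization gave -4.07 and -1.85. Its probe lies in an affected run in which 30.0% of the other probes at 2 h and 27.2% at 0.5 h passed 2-fold upwards. At 2 h all 90 other measured probes of the run had a larger change. The late changes of H2-Q8 were 0.45 at 7 h and 0.82 at 21 h (-0.65 and 0 under quantile normalization), that at 21 h beyond the pooled SD. Another probe outside the affected runs carries several symbols, one of them H2-Q8, and was assigned to no gene. It read -0.57, -0.31, -0.59, -0.76 and -0.41 in order of time, below the array median. Its changes of 0.26, -0.02, -0.19 and 0.16 thus differ from those of the probe used.

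As a group, class I genes stood above 0 h at the late times under median centring, though not under every scaling. At 7 h 6 of 6 were above 0 h, beside 49.9% of all genes. The median change was 0.94 and the range 0.23 to 1.74, while the median over all genes was -0.00029. At 21 h 6 of 6 were above it, beside 52.5% of all genes. The median was 0.66 and the range 0.40 to 1.33, against a median of 0.02 for all genes. Under quantile normalization of the 5 arrays 2 of 6 were above 0 h at 7 h, with a median of -0.215, and 3 of 6 at 21 h, with a median of 0.08. Under it Tapbp and Tap2 were the 2 genes above 0 h at 7 h, and B2m stood at -0.11. B2m lies near the top of these arrays, and its probes were between percentiles 99.0 and 99.9 of all probes at 0 h, 95.8 and 98.2 at 0.5 h, 93.3 and 96.2 at 2 h, 99.6 and 99.9 at 7 h, and 99.7 and 99.9 at 21 h. Ranked among the probes outside the affected runs, they were between 99.3 and 99.8 at 0.5 h and between 98.6 and 99.4 at 2 h. At 0.5 h 6 of 6 class I genes were above 0 h under median centring (median 0.40, all genes 0.08), beside 59.2% of all genes. Under quantile normalization 0 of 6 were. At 2 h 3 of 6 were above and 3 below 0 h under median centring, with a median of -0.01, while 56% of all genes were above. On every array all 6 class I genes had a ratio above the array median.

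**Figure D1:**
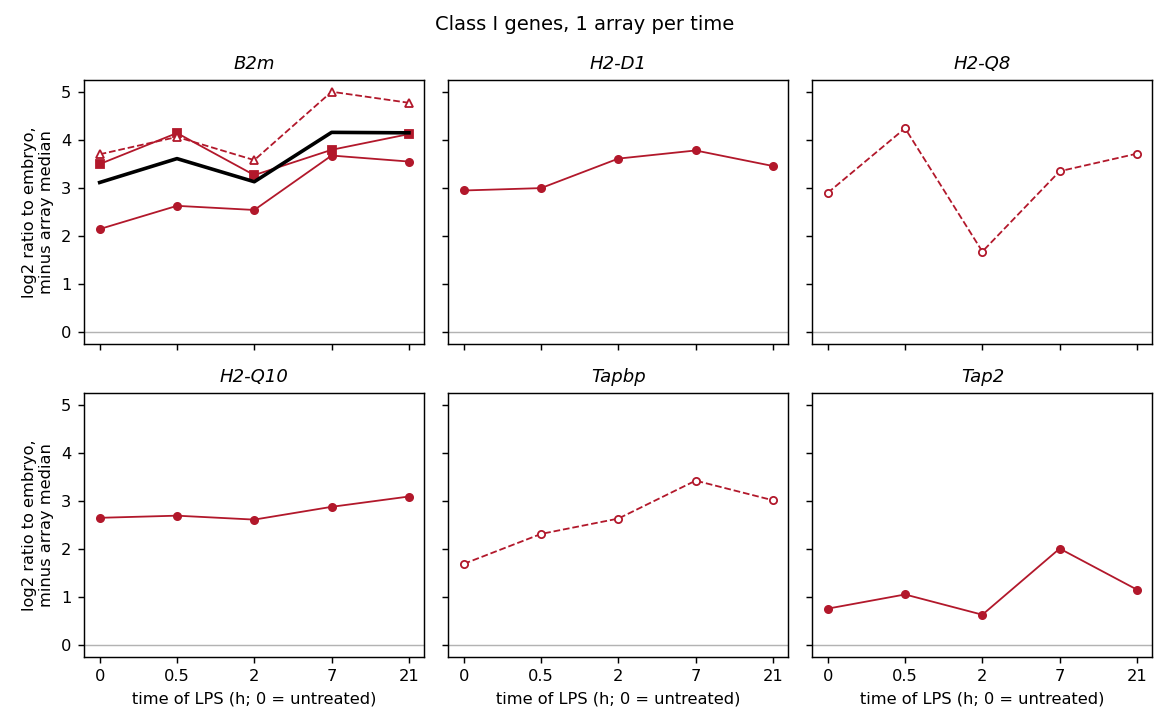
Log2 ratio to embryo RNA minus the array median (vertical axis) of each class I gene at 0, 0.5, 2, 7 and 21 h of LPS (horizontal axis, not to scale in time), 1 array per time. Each line is 1 probe, open symbols with broken lines are probes in affected runs, and the black line is the mean of the 3 B2m probes. Tapbp and Tap2 have their highest value at 7 h (3.42 and 2.01) and B2m stands at 4.16 and 4.15 at the late times, though its change at 7 h is -0.11 under quantile normalization, while H2-Q8 swings between 4.24 at 0.5 h and 1.67 at 2 h.

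The bases before the start of class I genes are shown because 6 of 6 stood above 0 h at the late times under median centring. Under quantile normalization 2 of 6 did at 7 h and 3 of 6 at 21 h. Elements for interferon and NF-kappaB are also well known before class I genes. RefSeq (GRCm38.p6) gave a window for 4 of the 6 class I and 5 of the 6 class II genes, and the 250 bases before the start were searched. These are C57BL/6J sequences. C3H mice carry other MHC alleles, so bases may differ in the cells studied. The windows are B2m (chr2:122147437-122147686, plus strand), H2-D1 (chr17:35262844-35263093, plus strand), H2-Q10 (chr17:35469839-35470088, plus strand) and Tapbp (chr17:33919228-33919477, plus strand). Capitals mark matches to any of the motifs below.
B2m: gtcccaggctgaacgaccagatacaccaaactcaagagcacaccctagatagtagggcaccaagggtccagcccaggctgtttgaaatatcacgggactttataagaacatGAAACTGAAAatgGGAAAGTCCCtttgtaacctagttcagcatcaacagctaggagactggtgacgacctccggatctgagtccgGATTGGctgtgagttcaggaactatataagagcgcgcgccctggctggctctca
H2-D1: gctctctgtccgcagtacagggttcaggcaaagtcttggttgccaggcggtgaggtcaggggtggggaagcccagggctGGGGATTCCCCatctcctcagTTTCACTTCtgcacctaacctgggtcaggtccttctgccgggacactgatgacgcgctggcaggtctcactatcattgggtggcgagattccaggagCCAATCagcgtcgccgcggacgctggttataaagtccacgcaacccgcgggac
H2-Q10: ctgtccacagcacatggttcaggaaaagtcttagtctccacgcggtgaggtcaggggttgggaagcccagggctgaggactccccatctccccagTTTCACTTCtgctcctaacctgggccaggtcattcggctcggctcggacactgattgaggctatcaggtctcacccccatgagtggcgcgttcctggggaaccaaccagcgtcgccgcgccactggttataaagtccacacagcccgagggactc
Tapbp: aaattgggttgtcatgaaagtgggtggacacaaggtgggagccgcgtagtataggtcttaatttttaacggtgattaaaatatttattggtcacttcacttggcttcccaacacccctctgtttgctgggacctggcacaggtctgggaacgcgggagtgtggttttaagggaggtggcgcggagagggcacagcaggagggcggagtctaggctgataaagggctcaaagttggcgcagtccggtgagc

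Motifs were searched on both strands: GAANNGAAA (core of the interferon-stimulated response element), the kappaB site (GGGA, a free base, T, 2 free bases and CC), GATTGG (inverted CCAAT box) and TTCNNNGAA (gamma-activated site). The interferon element with a longer first repeat (GAAA, 2 free bases and GAAA) was added after the sequences were seen. Among all 32851 windows of this length, 6.31% hold the first, 3.44% the kappaB motif, 14.6% the CCAAT motif, 7.02% the gamma-activated motif and 2.98% the added one. H2-D1 and H2-Q10 hold GAANNGAAA, each on the minus strand and starting 150 and 155 bases before the gene. H2-D1 also holds the kappaB motif on both strands in overlapping places, starting 171 and 170 bases before the gene, and an inverted CCAAT match. B2m holds the kappaB motif 126 bases and the added interferon motif 139 bases before its start, beside a CCAAT match at 54 bases. Tapbp, with the largest late change, holds none of these letters in its window. A match is a string of letters and not a shown binding site, and the absence of one says nothing of the factor.

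At 0 h the class II genes ran from 0.0039 to 0.84, and class I from 0.75 to 3.11. Under median centring no class II gene was at or beyond 2-fold from 0 h at 7 h or 21 h, though H2-DMb1 was at 21 h under quantile normalization (1.27) and with run medians (1.08). H2-Aa, the alpha chain of the H2-A molecule, had log2 ratios of 0.84, 2.39, 2.93, 0.97 and 1.54 at 0, 0.5, 2, 7 and 21 h. H2-DMb1, a beta chain of the peptide-loading molecule H2-DM, had 0.54, 2.58, 2.86, 0.54 and 1.49. Both stood high at 0.5 h and 2 h, were at the untreated level at 7 h and above it again at 21 h. The changes of H2-Aa were 1.55, 2.09, 0.13 and 0.70, and those of H2-DMb1 2.04, 2.33, 0.00 and 0.95. The changes at 0.5, 2 and 21 h exceed the pooled SD. At 0.5 h and 2 h H2-Aa stood at 0.737 and 0.555 under quantile normalization and at 0.82 and 0.90 with run medians, under 2-fold and, at 2 h, within the pooled SD. H2-DMb1 stood at 1.37 and 1.01 under quantile normalization and at 1.53 and 1.31 with run medians. Both probes lie in affected runs. In the run of H2-Aa 37.5% of the other probes passed 2-fold upwards on the 0.5 h array and 46.5% on the 2 h array, and 21 of 88 and 25 of 86 had a larger change than H2-Aa itself. In that of H2-DMb1 the shares were 36.0% and 47.7%, with 12 of 89 and 12 of 86 probes above it. At 21 h the shares were 1.10% and 2.17%. The part of the runs in the early values was not tested.

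A further H2-Aa probe, left out of the gene value because the 0.5 h array has no reading for it, lies outside the affected runs. It read 0.33, 0.39, 0.41 and 0.22 at 0, 2, 7 and 21 h. Its change of 0.06 at 2 h and -0.11 at 21 h thus differs from 2.09 and 0.70 on the probe used, by more than the pooled SD at both times. Another probe outside the affected runs carries the symbols Cops9 and H2-Aa and was assigned to no gene. Its changes were 1.85, 1.47, 1.19 and 0.49 at 0.5, 2, 7 and 21 h. The probes that carry H2-Aa alone thus differ at 2 h. At 7 h their changes were 0.13 and 0.08, and only the probe shared with Cops9 stood apart (1.19). Which gene gave the values of the shared probe was not tested. No further probe was found for H2-DMb1.

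Under median centring the other class II genes stayed within the pooled SD of 0 h at every time. With run medians Cd74 was beyond it at 0.5 h (-0.711) and at 7 h (0.595). Without centring H2-DMb2 was beyond it at 7 h (-0.565). H2-Eb1, the beta chain of the H2-E molecule, had log2 ratios of 0.03, -0.14, 0.04, -0.12 and 0.13. H2-DMa, the alpha chain of H2-DM, had 0.0039, 0.09, 0.01, 0.16 and 0.14, and a further probe of it without a 0.5 h reading had -0.20, -0.31, -0.12 and -0.14 at the remaining times. H2-DMb2, its other beta chain, had 0.07, -0.18, 0.12, -0.27 and -0.03. These genes read close to the array median throughout, that is, close to the ratio of a typical probe. H2-DMb1 and H2-DMb2 are close relatives, so that a cDNA of one may also have bound the other, yet their values at 0.5 h and 2 h differ. Cd74, the invariant chain that guards the peptide groove, had 0.82, 0.70, 0.90, 1.31 and 1.10, with a largest change of 0.49 (1.40-fold) at 7 h. In the run of Cd74, 57.0% of the other probes were at least 2-fold above 0 h at 2 h, where Cd74 itself had a change of 0.07. In that of H2-Eb1, which also holds the Tapbp probe as its direct neighbour, the share was 32.9% and H2-Eb1 had a change of 0.01.

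**Figure D2:**
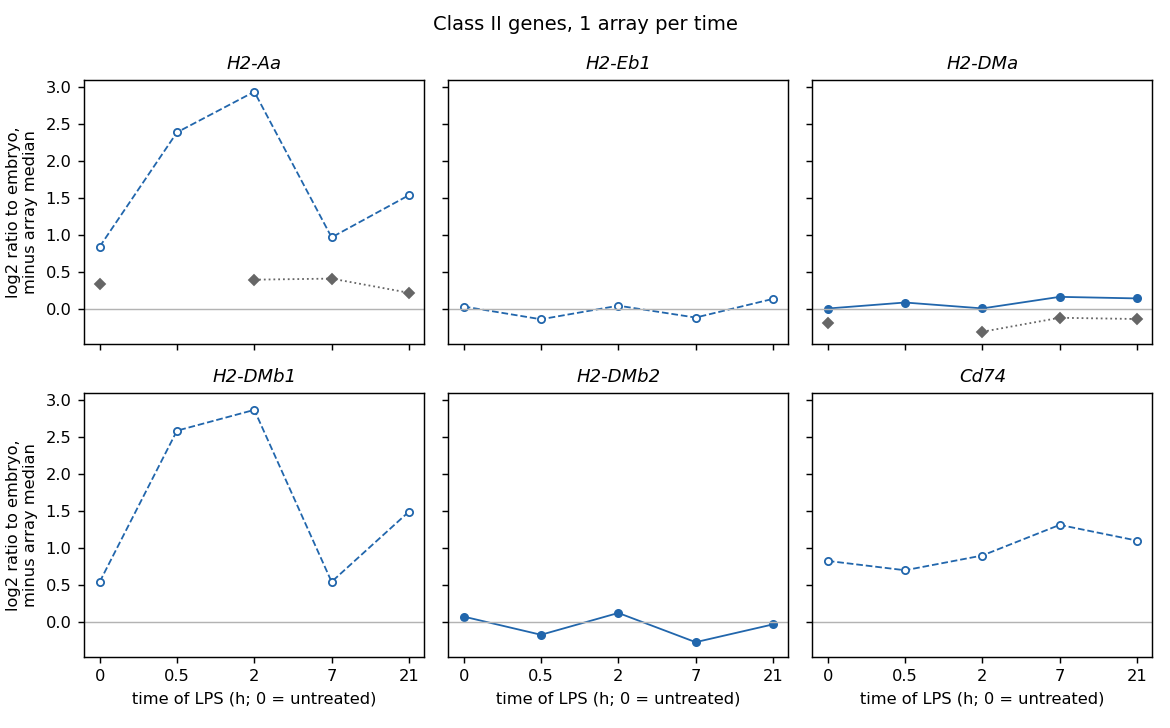
Log2 ratio to embryo RNA minus the array median (vertical axis) of each class II gene at 0, 0.5, 2, 7 and 21 h of LPS (horizontal axis, not to scale in time), 1 array per time. Blue lines are the probes used, open with broken lines where they lie in affected runs, and grey diamonds are probes with no reading at 0.5 h. H2-Aa and H2-DMb1 reach 2.93 and 2.86 at 2 h, the grey H2-Aa probe reads 0.39 there, and H2-Eb1, H2-DMa and H2-DMb2 stay near 0.

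The class II windows that hold the best-known element of these promoters are shown for H2-Aa (chr17:34287824-34288073, minus strand), H2-DMb1 (chr17:34152941-34153190, plus strand) and H2-Eb1 (chr17:34305617-34305866, plus strand), read as before, with capitals for matches.
H2-Aa: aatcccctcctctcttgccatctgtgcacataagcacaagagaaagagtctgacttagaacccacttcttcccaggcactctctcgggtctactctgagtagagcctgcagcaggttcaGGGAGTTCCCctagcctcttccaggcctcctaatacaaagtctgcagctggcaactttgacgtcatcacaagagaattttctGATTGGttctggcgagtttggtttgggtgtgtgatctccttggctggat
H2-DMb1: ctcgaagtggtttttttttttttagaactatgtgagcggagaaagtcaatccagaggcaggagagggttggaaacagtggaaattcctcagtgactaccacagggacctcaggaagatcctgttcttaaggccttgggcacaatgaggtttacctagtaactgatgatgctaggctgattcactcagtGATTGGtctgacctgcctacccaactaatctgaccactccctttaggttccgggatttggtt
H2-Eb1: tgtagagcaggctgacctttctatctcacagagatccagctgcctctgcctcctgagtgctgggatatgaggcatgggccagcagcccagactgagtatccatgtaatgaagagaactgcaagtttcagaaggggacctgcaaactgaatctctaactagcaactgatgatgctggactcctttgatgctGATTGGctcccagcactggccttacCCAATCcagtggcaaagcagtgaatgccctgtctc

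GATTGG, the core of the Y box that is known to lie in class II promoters, was found in 5 of 6 class II windows, which cover 5 genes, and in 2 of 4 class I windows, beside 14.6% of all windows. Of the 2 windows of H2-DMa, 1 holds none and the other holds it 199 bases before the start. It lies 49 bases before the start of H2-Aa, 62 before H2-DMb1 and 60 before H2-Eb1, which holds it again on the minus strand at 35 bases. Neither interferon motif was found in a class II window, and the kappaB motif only in that of H2-Aa, 131 bases before the start. The gamma-activated motif was found in the window of H2-DMb2, 218 bases before the start, and in 0 of 4 class I windows. Genes with the Y box letters thus include both those with high early readings and those near 0 throughout.

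Set against all genes, the 12 are described by counts of at least 2-fold from 0 h, under median centring unless stated. At 0.5 h 3 were higher (H2-DMb1, H2-Aa and H2-Q8) and 0 lower, while 5.95% of all genes were higher and 1.01% lower. At 2 h 2 were higher (H2-DMb1 and H2-Aa) and 1 lower (H2-Q8), while 12.4% of all genes were higher and 1.1% lower. Under quantile normalization B2m, H2-D1, H2-Q10, H2-Q8 and Tapbp were lower at both 0.5 h and 2 h. H2-DMb1 alone of the 12 was then higher, beside 2.78% and 4.98% of all genes. All early calls under median centring come from probes in affected runs. Over the probes outside the runs 0 of 6 genes passed upwards at 0.5 h or 2 h, where 1.28% and 4.22% of 5996 genes did. On the lower side 0 of these 6 passed at any time, while 0.984%, 1.55%, 2.87% and 1.08% of the 5996 did in order of time. The runs were chosen by high readings at 0.5 h and 2 h, so low upward counts outside them are partly set by the choice. At 7 h 3 were higher (Tapbp, Tap2 and B2m) and 0 lower, while 4.08% of all genes were higher and 3.16% lower. At 21 h 2 were higher (Tapbp and B2m) and 0 lower, while 3.05% were higher and 1.45% lower. Over the probes outside the runs, 1 of 6 genes passed at 7 h (Tap2) and 1 at 21 h (B2m), with 4.52% and 2.55% of all genes there. Under median centring these late calls are class I genes, but class II H2-DMb1 passed at 21 h under quantile normalization (1.27) and with run medians (1.08). B2m lies just inside the threshold, at 2.06-fold and 2.05-fold, and just outside it lie Tapbp at 2 h (1.92-fold) and H2-DMb1 at 21 h (1.93-fold). The 2 classes overlap at each time: at 7 h class I ran from 0.23 to 1.74 and class II from -0.35 to 0.49, and at 21 h class I ran from 0.40 to 1.33 and class II from -0.11 to 0.95. The class II medians were -0.02, 0.06, 0.06 and 0.21 in order of time. Each comparison shares the 0 h array, so a reading on that array enters all changes of a gene alike.

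**Figure D3:**
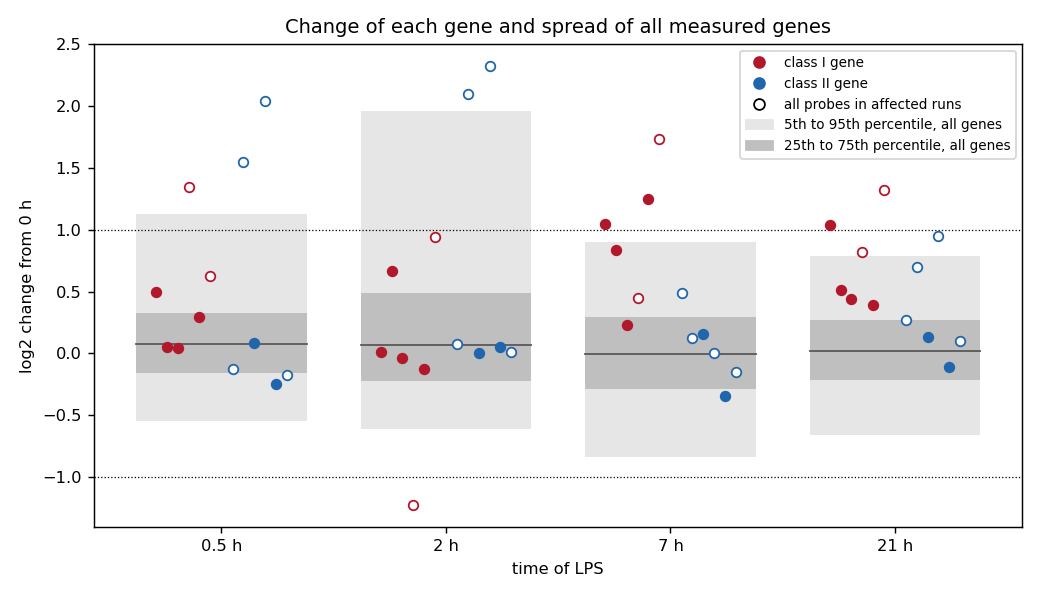
Log2 change from 0 h (vertical axis) of the 6 class I (red) and 6 class II genes (blue) at each time of LPS (horizontal axis), on grey bands that span the 5th to 95th and 25th to 75th percentile of all 8637 genes, with dotted lines at 2-fold. Open circles are genes with all probes in affected runs. At 7 h the class I genes run up to 1.74 and the class II genes up to 0.49, and under quantile normalization up to 1.72 and 0.46, where the order of the medians is turned round (-0.215 for class I and -0.08 for class II).

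The late times were also set against each other. On the log2 scale the difference of 21 h minus 7 h was -0.86 for Tap2, -0.41 for Tapbp, -0.32 for H2-D1 and -0.0094 for B2m. It was 0.95 for H2-DMb1 and 0.57 for H2-Aa. None of the 12 moved 2-fold in this step, in which 1.82% of all genes were higher and 1.12% lower. With the 0.5 h array as baseline in place of 0 h, Tapbp alone of the 12 stood at least 2-fold higher at 7 h (1.11), where 2.72% of all genes did. On that baseline 0 of the 12 did at 2 h, where 8.04% of all genes did, and 0 at 21 h, where 2.26% did. B2m stood at 0.55 and 0.54 on that baseline.

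**Figure D4:**
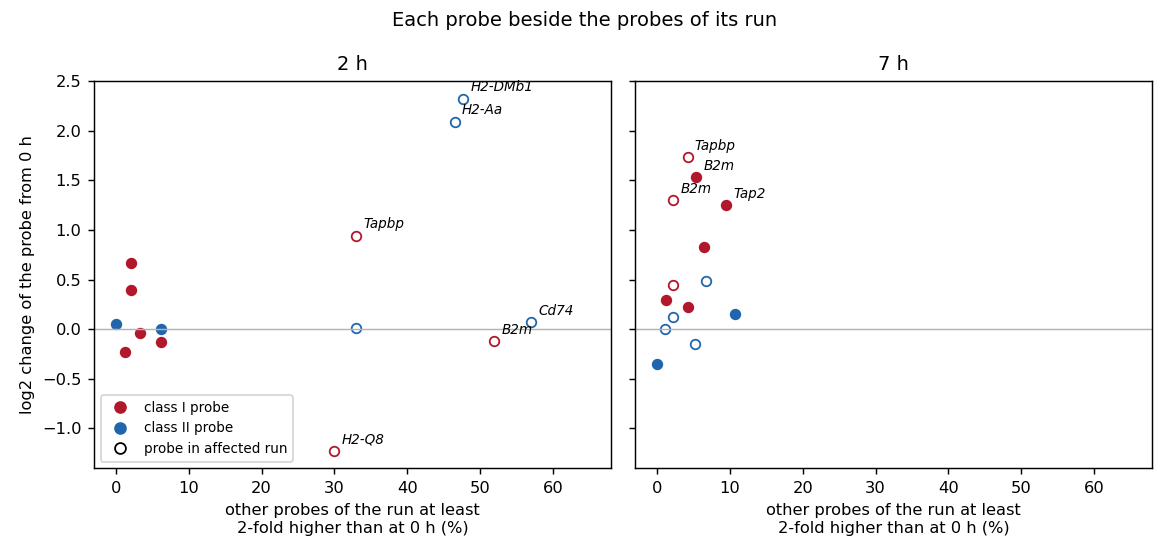
Log2 change from 0 h of each of the 14 probes (vertical axis) beside the percentage of the other probes of its run of 96 that were at least 2-fold above 0 h (horizontal axis), at 2 h (left) and 7 h (right). Red is class I, blue is class II and open circles are probes in affected runs. At 2 h H2-Aa and H2-DMb1 lie in runs with 46.5% and 47.7% of high probes. Cd74 (0.07) and a B2m probe (-0.12) lie in runs with 57.0% and 51.9% of them. At 7 h the runs of Tapbp, Tap2 and B2m hold at most 9.52%. The part of the runs in these values was not tested.

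Other genes of the class I pathway were followed from a list of 14 measured members that holds proteasome subunits, chaperones and class I relatives. At 7 h 3 were at least 2-fold higher and 0 lower, namely the immunoproteasome subunits Psmb8 (2.68-fold, change 1.42, SD over probes 0.49, 7 probes) and Psmb10 (2.42-fold), and the proteasome activator Psme2 (2.35-fold, SD 0.22, 2 probes). Of all genes 4.08% were higher. Outside the affected runs 2 of 10 were higher and 1 lower, beside 4.52% and 2.87% of all genes there. At 21 h 0 of 14 were at least 2-fold from 0 h, beside 3.05% of all genes higher and 1.45% lower. Psmb8 then had a change of 0.57 and Psmb10 of 0.09. At 0.5 h 1 and at 2 h 3 of 14 were higher, beside 5.95% and 12.4% of all genes. Outside the affected runs 0 of 10 were, beside 1.28% and 4.22%. Psme2 had a larger change at 2 h than at 7 h (2.20, SD 1.57). The immunoproteasome subunit Psmb9 had changes of 2.29, 2.34, 0.63 and 0.10 in order of time, on a probe in an affected run. Hspa5, the chaperone BiP of the endoplasmic reticulum, was highest at 7 h with 0.97 (SD 0.17, 3 probes). The chaperones of class I folding, calnexin (Canx), calreticulin (Calr) and Pdia3, had changes of 0.05, 0.12 and -0.03 at 7 h and by 0.05, 0.38 and 0.72 at 21 h. The list median was 0.31, 0.21, 0.20 and 0.22 at 0.5, 2, 7 and 21 h, beside 0.08, 0.07, -0.00029 and 0.02 for all genes.

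Of 10 measured genes around class II, 0 were at least 2-fold from 0 h at 7 h or 21 h. Among all genes 4.08% were higher and 3.16% lower at 7 h, and 3.05% and 1.45% at 21 h. Cathepsin S (Ctss), the protease that trims the invariant chain, had a log2 ratio of 6.21, 7.94, 7.82, 6.84 and 7.21 in order of time. Its changes of 1.73 and 1.61 at 0.5 h and 2 h come from a probe in an affected run, and at 7 h and 21 h the changes were 0.63 and 0.99. The thiol reductase Ifi30, which opens disulphide bonds of antigens, had changes of -0.16 and -0.68 at the late times, and cathepsin B (Ctsb) by 0.52 and 0.37 (SD over probes 0.50 and 0.43). Creb1, a factor that binds class II promoters, had changes of 0.09 and 0.67. The subunits of RFX and NF-Y, which occupy the X and Y boxes of class II promoters, were represented by Rfxank, Rfxap, Nfya, Nfyb and Nfyc, with changes of -0.21 to 0.27 at 7 h.

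Of 11 measured interferon and MHC regulators, 2 passed 2-fold upwards at each late time and 0 downwards, beside 4.08% of all genes upwards at 7 h and 3.05% at 21 h. Outside the affected runs 1 of 8 passed at each late time, beside 4.52% of all genes there at 7 h and 2.55% at 21 h. Irf7, an interferon regulatory factor, was 4.73-fold higher at 7 h (change 2.24, SD over probes 0.49, 2 probes), with a change of 1.74 at 21 h. Stat2, a transducer of type I interferon signals, had a change of 0.04 at 2 h and of 2.17 and 1.27 at 7 h and 21 h, on a probe in an affected run. Its partner Irf9 had changes of 0.91, 0.96 and 0.76 at 2, 7 and 21 h. Irf1, a known activator of class I genes, was highest early, with 1.03, 1.71, 0.84 and 0.43 in order of time on a probe outside the runs, at times when the class I medians were 0.40, -0.01, 0.94 and 0.66. The receptor chain Ifngr1 had changes of -0.55 and -0.57 at the late times.

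In a bulk sample, more cells of a type and more RNA per cell cannot be told apart, and other cells of bone marrow cultures also carry class II. Of 4 measured dendritic cell markers (Ccl17, Ccr7, Fscn1 and Zbtb46), 0 were at least 2-fold from 0 h at any time. Of all genes 5.95%, 12.4%, 4.08% and 3.05% were higher in order of time, and 1.01%, 1.1%, 3.16% and 1.45% lower. The summed ratio of the 4 markers to embryo was 3.45, 4.22, 3.61, 3.31 and 3.81 in order of time. Of 7 B cell markers 3, 2, 2 and 1 passed 2-fold upwards in order of time and 0 downwards, beside 5.95%, 12.4%, 4.08% and 3.05% of all genes upwards. Outside the affected runs 1, 1, 2 and 1 of 6 passed, beside 1.28%, 4.22%, 4.52% and 2.55% of all genes there. The early calls include Cd79a, whose probe lies in an affected run, and Ebf1, with 1 of 2 probes there and an SD over probes of 2.60 at 0.5 h. Of the list, Cd79b, a chain of the B cell receptor, had log2 ratios of -2.08, -0.95, -0.03, 0.32 and -0.29, below the array median except at 7 h. Its changes of 1.13, 2.05, 2.41 and 1.79 passed 2-fold at every time, on 1 probe outside the affected runs. Cr2 (2 probes) had changes of -0.49 and -0.38 at 7 h and 21 h, and Ighm (3 probes) -0.38 and -0.27. Vpreb1 had 1.03 and 0.33, and Vpreb3 -0.00035 and -0.07. The median change of the list was 0.23, 0.70, 0.25 and -0.07 in order of time. The summed ratio of the B cell list was 6.06, 11.95, 10.7, 8.94 and 6.84, and that of 4 T and NK cell markers 7.68, 10.6, 9.79, 7.00 and 6.62. The summed ratio of the 7 macrophage markers was 33.3, 34.9, 32.0, 31.5 and 29.5. Lyz2 is its largest part (log2 ratio 4.16 at 0 h), as is Cd5 of the T and NK sum (2.24, on a probe in an affected run). Single macrophage markers moved both ways. At 7 h and 21 h Fcer1g had changes of 1.14 and 0.48, Laptm5 -0.93 and -0.98, and C1qa -0.41 and -0.53. At 7 h 1 of the 7 passed 2-fold upwards, beside 4.08% of all genes. At 0.5, 2 and 21 h 0 did, beside 5.95%, 12.4% and 3.05%. A ratio to embryo has no zero of expression, so none of these markers can be called absent, and their part in the class II values was not tested.

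The genes most like B2m were sought among 3014 genes with 2 or more probes, by the root mean square difference of the 4 changes from 0 h. They were Rac2, a GTPase of blood cells (0.13, with changes of 0.90 and 1.02 at 7 h and 21 h), 1700029P11Rik (0.19), the lysosomal membrane gene Lamp2 (0.21), Smarcd3 (0.21) and Selenow (0.22), against a median of 0.81. Those most like Tapbp among 8636 genes were Irgm2, an interferon-inducible GTPase (0.14, with changes of 0.59, 1.16, 1.80 and 1.48), 2010110K18Rik (0.20), Tst (0.20), Pecr (0.20) and Fancg (0.21), against a median of 1.25. B2m ranked 260th and H2-D1 412th in likeness to Tapbp. The probes of Irgm2 and 2010110K18Rik lie in affected runs, as does that of Tapbp, while those of Tst, Pecr and Fancg do not. Each of the 5 genes named as most like B2m has at least 1 probe in an affected run. These likenesses are descriptions over 4 differences that share 1 baseline array.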

How the data were processed

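The authors deposited 1 value per probe and array, a log ratio that was read as log10, with no intensities and no depth. The labels state neither base nor direction nor dyes per channel. As log2, the 5th to 95th percentile at 0 h would span ratios of 0.770 to 1.33 between macrophage and embryo, as log10 0.419 to 2.60. Whether the authors had normalized them is not stated in the labels. Of 19828 probes, 14759 carried 1 symbol in the platform annotation of 2008, 170 several (named for none) and 4899 are unnamed here. Entrez identifiers matched 14628 to the GRCm38.p6 gene table. Values were converted to log2, centred on the array median over 18296 probes measured on all 5 arrays and averaged per gene (Python 3.11.15, numpy 2.4.6, pandas 2.3.3). The steps were tested on simulated data. With 1 array per time no test was made, and precision is limited by having so few arrays. "Higher" and "lower" calls mean 2-fold. The genes, lists, affected runs and alternatives were chosen with earlier results of these data known. All members are named. From each pathway list the 4 genes with the largest change at 7 or 21 h are named, and others named beside them were chosen after their values were seen. The 5 genes most like B2m and Tapbp follow the stated distance. Alternatives were no centring, quantile normalization, run medians, omission of affected runs, the median over probes, probes on both arrays compared, base 2 and the 0.5 h baseline. Quantile normalization over probes outside the affected runs was added after seeing the data.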

Additional observations from a re-analysis of the deposited data

Results flagged for a closer look

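Among probes that no comparison used, 1 probe that carries the symbols Cops9 and H2-Aa, the latter of class II, stood above its untreated reading. It lies outside the affected runs and had log2 changes of 1.85 at 0.5 h, 1.47 at 2 h, 1.19 at 7 h and 0.49 at 21 h. It was not assigned to a gene. The other 2 probes that carry several symbols, some of them of class I, also lie outside the affected runs. The probe with H2-Q8 among its symbols had changes of 0.26, -0.02, -0.19 and 0.16 in order of time. That of Gm38417, H2-Q9 and H2-Q7 had changes of -0.23, -0.61, 0.09 and -0.44. Its log2 ratios were -0.05, -0.29, -0.67, 0.03 and -0.49, below the array median except at 7 h.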

How the results depend on the processing

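No paired analysis was possible because each time has 1 array. Quantile normalization, which assumes that all arrays share one distribution, gave class I medians of -2.17, -3.1, -0.215 and 0.0847 at 0.5, 2, 7 and 21 h, and counts of genes at least 2-fold higher of 1 at 0.5 h and 1 at 2 h. It reversed B2m at 7 h (-0.114) and H2-Q8 at 0.5 h (-1.85). Quantile normalization over probes outside the affected runs, chosen after seeing the data, leaves 4 class I genes, with medians of -0.428, -1.14, 0.177 and 0.0725 and counts of 0 at every time. Without affected runs the counts were 0, 0, 1 and 1, where fewer genes remain. The early counts are partly set by the choice of the runs. Run medians gave 1 at 0.5 h, 1 at 2 h and 3 at 21 h, where H2-DMb1 (1.08) joined Tapbp and B2m. Quantile normalization gave 2 at 21 h, Tapbp and H2-DMb1 (1.27). No centring gave 1 at 21 h, and the median over probes 1 at 21 h. With the 0.5 h baseline the counts were 0, 1 and 0 at 2, 7 and 21 h. Read as log2, all counts were 0 and the class I median at 7 h was 0.283. Except by construction, the cause was not tested. No centring shifted all genes by -0.219 at 7 h and -0.145 at 21 h, and quantile normalization by -0.108 at 2 h. All 12 summary results kept their values within the limits set with probes measured on both arrays compared. The late class I medians kept their sign under each scaling but quantile normalization at 7 h. The share of genes 2-fold higher at 2 h was 12.4% under median centring and 4.98% under quantile normalization. Signal over background is unknown, since only ratios were deposited.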
